A study of Oryza sativa with 18 samples.

Results

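The cellulose synthase A (CESA) genes of rice were followed through the input RNA and the m6A peak lists of Nipponbare panicles and flag leaves. The family members were taken by gene identifier, 9 of the 38663 genes in the deposited expression table. They comprise 6 genes of the primary wall (CESA1, CESA2, CESA3, CESA5, CESA6 and CESA8) and 3 genes of the secondary wall (CESA4, CESA7 and CESA9). The deposited descriptions name each of them as a catalytic subunit of cellulose synthase A. The study sequenced input RNA and m6A immunoprecipitates, with 3 libraries of each per group. The groups were booting panicles, flowering panicles and flag leaves of the flowering stage. All groups were untreated field-grown Nipponbare, a japonica cultivar, and no transgene or mutant was labelled. Panicles were collected on 3 August (booting) and 14 August (flowering) at about 3 PM, so stage and collection day cannot be told apart, and no day was labelled for the leaves. Plant age, and whether panicles or leaves were pooled, are not stated in the labels.

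Cellulose is spun out at the plasma membrane by rosette-shaped complexes in which several different CESA proteins sit side by side and each extends a glucan chain from UDP-glucose. One set of subunits makes the thin primary wall of dividing and expanding cells. Another set, in rice CESA4, CESA7 and CESA9, makes the thick secondary wall of fibres and vessels, and rice mutants that lose any of these 3 have brittle culms. In a panicle, rachis, branches and husks contain both kinds of wall. N6-methyladenosine (m6A) is a base modification of mRNA that in plants lies mostly near the stop codon and in the 3' UTR. In m6A-seq it is located by precipitating RNA fragments of about 100 nt with an antibody.

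Expression is given in FPKM (fragments per kilobase of transcript, scaled to the library's total of fragments), which is per length, so that levels of different members can be set side by side. Means are followed by the SD over 3 libraries (n = 3). Changes are differences in log2(FPKM + 1), and their standard errors (SE) come from limma. A gene was called when its adjusted p was under 0.05 (limma, Benjamini-Hochberg over 23355 genes) and its log2 change was at least 1 either way. FPKM sums per library ran from 504583 to 569592, and replicates correlated at 0.9875 to 0.9956 (Pearson, log2 values across genes). The sequencing depth is unknown. Labels and markers matched. RuBisCO activase and the RuBisCO small subunit together stood at 18244 to 18675 FPKM in leaves, at 1993 to 2261 in flowering panicles and at 74.6 to 109.3 in booting panicles. The 3 floret MADS-box genes together stood at 606.7 to 1078 FPKM in panicles and at 4.91 to 7.31 in leaves. In bulk tissue, fewer cells of a type and less RNA per cell cannot be told apart. Nothing in the labels says that replicates came from separate plants, and a p-value here sets differences against the spread of labelled replicates, which may be technical.

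From booting to flowering, most primary wall CESA genes fell in the panicle, while the secondary wall genes varied more between libraries of one stage than between the stages. Of the 9 members, 4 were called lower at flowering (CESA1, CESA2, CESA5 and CESA6), none was called higher and 5 were not called. Over all genes tested, 15.3% were called lower, 18.1% higher and 33.4% either way. At an unadjusted p under 0.05 (limma), 0 of the 9 were higher and 6 lower. The share of all genes at that limit was not taken, so how unusual this split is cannot be said. The median log2 change was -1.61 over the 6 primary wall members, -0.32 over the 3 secondary wall members and -0.09 over all genes. With no limit on size, 6 members, the whole primary wall set, had an adjusted p under 0.05 and lower values at flowering, as did 42.7% of all genes. Where stages are said below not to overlap for a gene, the share of all genes without overlap was not counted.

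CESA5 (LOC_Os03g62090, chromosome 3: 35177572-35183423, plus strand), a primary wall subunit gene, had the largest change of the 9. Its FPKM was 101.2, 90.7 and 98.8 at booting, 13.6, 13.7 and 14.4 at flowering and 0.973, 0.955 and 0.833 in flag leaves. The stages lay far apart, and the libraries of each were close together. It fell by 2.72 on the log2 scale (SE 0.07, adjusted p = 4e-10, limma), to 14.3% of its booting mean.

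CESA6 (LOC_Os07g14850, chromosome 7: 8496189-8501906, plus strand) had 126.3, 100.0 and 96 FPKM at booting, 25.2, 25.5 and 25.8 at flowering and 1.31, 1.45 and 1.08 in leaves. The flowering libraries were almost equal, and all lay below the lowest booting library. The log2 change was -2.02 (SE 0.10, adjusted p = 4.92e-08, limma).

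CESA2 (LOC_Os03g59340, chromosome 3: 33780013-33786467, minus strand) was the lowest of the primary wall genes at booting, with 42.8, 44.7 and 48.1 FPKM. It had 13.7, 15.3 and 15.9 FPKM at flowering and 0.665, 0.635 and 0.391 in leaves. The stages did not overlap, and the log2 change was -1.53 (SE 0.09, adjusted p = 1.63e-07, limma). CESA2 shares 1293 bases with the opposite-strand gene LOC_Os03g59330, a putative polygalacturonase precursor with 2.6 to 18.6 FPKM in panicles. The strand setting of the quantification is not stated, so reads in the shared stretch could be counted to either gene.

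CESA1 (LOC_Os05g08370, chromosome 5: 4565177-4571461, minus strand) was the most abundant member at booting, with 321.7, 267.4 and 274.1 FPKM. At flowering it had 94.5, 85.2 and 86.4 FPKM, and in leaves 5.56, 5.51 and 4.55. All flowering libraries lay below all booting libraries, and the log2 change was -1.68 (SE 0.09, adjusted p = 8.34e-08, limma).

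CESA8 (LOC_Os07g10770, chromosome 7: 5852711-5858718, minus strand) had 242.3, 190.8 and 178.6 FPKM at booting. Its values were 113.3, 93.8 and 96.1 at flowering and 5.22, 5.45 and 4.64 in leaves. The stages did not overlap, and the mean at flowering was 49.6% of that at booting. The log2 change of -0.9976 (SE 0.12, adjusted p = 2.57e-05, limma) narrowly missed the limit on size. CESA8 was called without booting replicate 2 (-1.04), without booting replicate 3 (-1.09) and without flowering replicate 1 (-1.08). It was also called with libraries scaled to equal sums (-1.14), after quantile normalization (-1.22) and with a pseudocount of 0.1.

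CESA3 (LOC_Os07g24190, chromosome 7: 13741284-13747256, minus strand, with 3 annotated transcripts) had the highest coefficient of variation of the primary wall genes in panicles, 22.6% at booting and 26.2% at flowering. It had 87.5, 70.5 and 55.4 FPKM at booting, 50.8, 48.7 and 30.2 at flowering and 6.18, 6.44 and 5.52 in leaves. The highest flowering library lay just below the lowest booting library, so the stages came close without overlap. The log2 change of -0.72 (SE 0.20, adjusted p = 0.00844, limma) was not called, and ranged from -0.88 to -0.48 with single libraries left out.

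**Figure D1:**
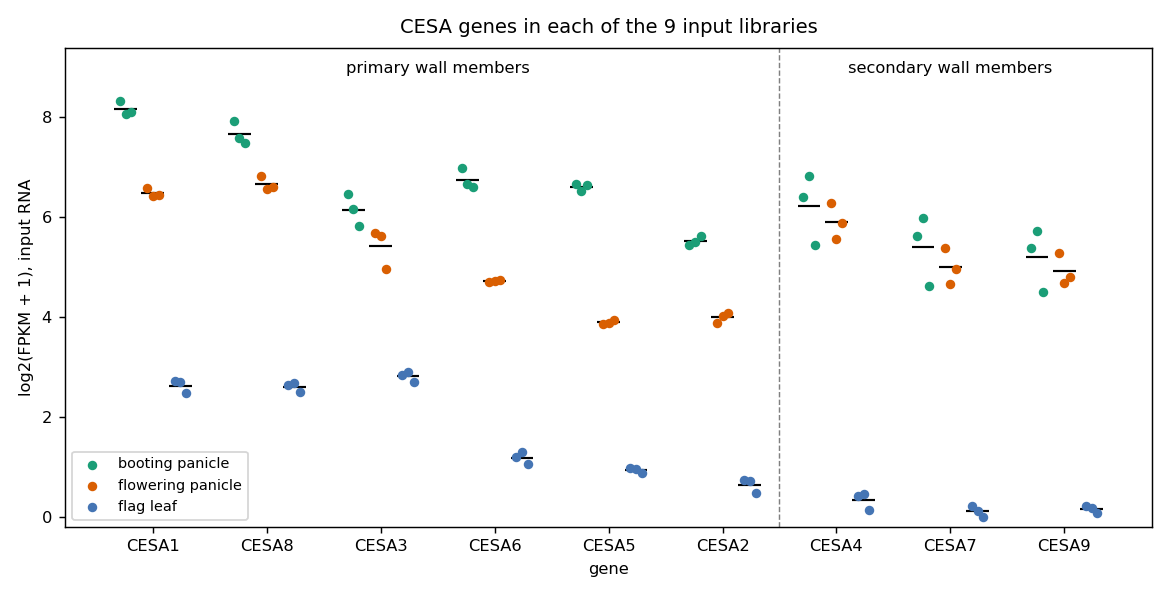
Input RNA of the 9 CESA genes, with the gene on the x axis and log2(FPKM + 1) on the y axis; each point is a library (3 per group) and each bar the group mean. The 6 primary wall genes step down from booting (green) to flowering (orange) without overlap, the 3 secondary wall genes overlap between the stages, and all 9 are lowest in flag leaves (blue). The share of all genes without overlap was not counted, and 42.7% of all genes were lower at flowering at an adjusted p under 0.05 alone (limma).

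At booting the secondary wall genes had the highest coefficients of variation of the 9 members, 40.5% to 44.3% against 22.6% or less for the primary wall genes. At flowering theirs were 23.2% to 26.4%, close to the 26.2% of CESA3. CESA4 (LOC_Os01g54620, chromosome 1: 31422946-31428688, plus strand) had 83.5, 113.3 and 42.8 FPKM at booting and 77.6, 46.2 and 58 at flowering. All flowering values lay within the booting range, and the log2 change was -0.32 (SE 0.31, adjusted p = 0.366, limma).

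CESA7 (LOC_Os10g32980, chromosome 10: 17261952-17266613, plus strand) had 48.5, 62.2 and 23.7 FPKM at booting and 40.8, 24.3 and 30.2 at flowering. CESA9 (LOC_Os09g25490, chromosome 9: 15281268-15285910, plus strand) had 40.9, 52.2 and 21.6 FPKM at booting and 37.8, 24.8 and 27.1 at flowering. For both genes the flowering libraries lay inside the booting range. The log2 changes were -0.41 for CESA7 (SE 0.30, adjusted p = 0.24, limma) and -0.28 for CESA9 (SE 0.27, adjusted p = 0.363, limma).

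Booting replicate 3 weighed on all 3 secondary wall values. Without it, the log2 change was -0.71 for CESA4 (adjusted p = 0.0146, limma), -0.80 for CESA7 (adjusted p = 0.0051, limma) and -0.64 for CESA9 (adjusted p = 0.00892, limma), none of which reached the limit on size. Without booting replicate 2, the changes were -0.01, -0.12 and -0.02. The wide spread at booting leaves a difference between the stages of either size undecided for these genes. Whether the change of the primary wall genes differed from that of the secondary wall genes was not tested.

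**Figure D2:**
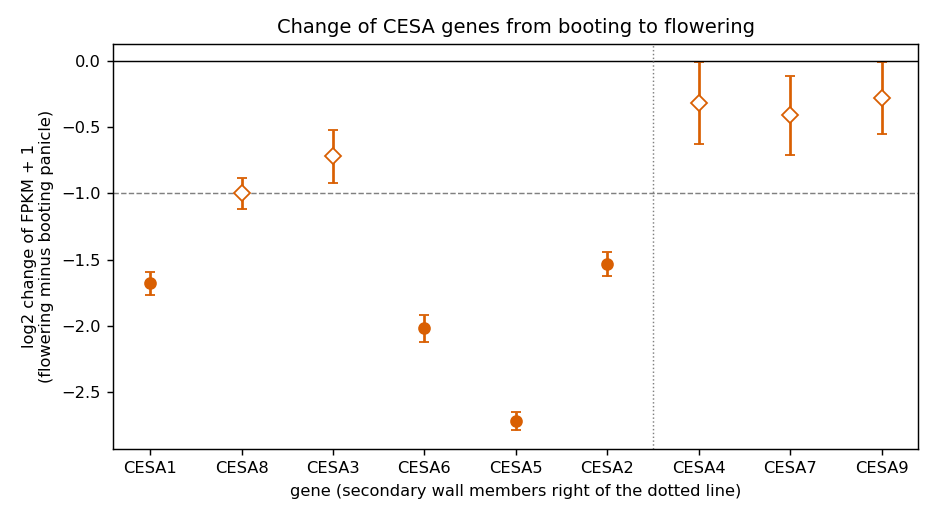
Log2 change of FPKM + 1 from booting to flowering panicles (y axis) for each CESA gene (x axis), with the SE of limma as error bars; filled circles were called, open diamonds were not, and the dashed line marks a change of -1. CESA5 has the largest change (-2.72), CESA8 sits on the limit, and the 3 secondary wall genes lie between -0.41 and -0.28.

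The 3 secondary wall genes moved together from library to library. Each was highest in booting replicate 2, then 1, then 3, and at flowering each was highest in replicate 1, then 3, then 2. Of all genes tested, 4.79% had this order in both stages. The ratio of CESA4 to CESA7 was 1.72, 1.82 and 1.81 at booting and 1.9, 1.9 and 1.92 at flowering, while CESA4 itself ranged from 42.8 to 113.3 FPKM. CESA9 stood at 0.84 to 1.02 of CESA7 in the 6 panicle libraries. CESA4 thus made up 48.9% ± 0.77 (SD, n = 3) of the summed secondary wall FPKM at booting and 49.5% ± 0.926 (SD, n = 3) at flowering. CESA7 made up 27.4% and 26%, and CESA9 made up 23.7% and 24.6%.

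The primary wall genes did not share that order: 5 of the 6, all but CESA2, were highest in booting replicate 1, as were 30.3% of all genes. Among the 9 members, the closest profiles over the 9 libraries were those of CESA7 and CESA9, with a root mean square difference of 0.115 between centred log2 values. CESA1 and CESA6 followed at 0.167, then CESA1 and CESA8 at 0.294. CESA3 stood apart, at 0.703 to 1.36 from every other member. These distances describe the same 9 libraries and carry no test.

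**Figure D3:**
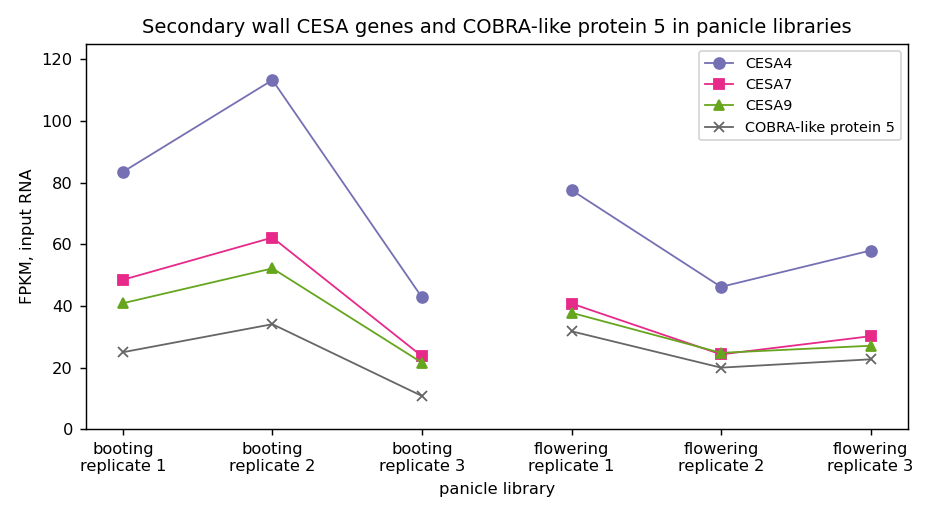
FPKM (y axis) of CESA4, CESA7, CESA9 and COBRA-like protein 5 in the 3 booting and 3 flowering panicle libraries (x axis); each point is a library, and lines join the libraries of a stage only to guide the eye. All 4 genes are highest in booting replicate 2 and lowest in booting replicate 3, and at flowering all are highest in replicate 1.

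The ratio of summed secondary wall to summed primary wall CESA FPKM was higher on average at flowering than at booting. Summed primary wall FPKM was 812.2 ± 95 (SD, n = 3) at booting and 287.4 ± 21.6 (SD, n = 3) at flowering. Summed secondary wall FPKM was 162.9 ± 70.3 (SD, n = 3) and 122.2 ± 31.1 (SD, n = 3). The ratio of secondary to primary was 0.188, 0.298 and 0.117 at booting and 0.502, 0.338 and 0.429 at flowering. All flowering libraries lay above all booting libraries, with the nearest at 0.338 and 0.298. With CESA1, CESA3 and CESA8 alone as the primary set the stages overlapped, at 0.431 in booting replicate 2 and 0.418 in flowering replicate 2. The ratio was not tested because the members were chosen with earlier results known. Dividing-cell markers moved in the same direction as the primary wall sum. Both of 2 such genes were lower at flowering, with histone H2A.5 at 12.4% and cyclin-B1-3 at 15% of its booting mean, and together they ranged from 291.4 to 436.2 FPKM at booting and from 41.8 to 49.2 at flowering. Pollen markers moved the other way, with all 3 higher at flowering and a sum of 15.4 to 18.8 FPKM at booting and 6579 to 7915 at flowering. So did both leaf mesophyll markers, with RuBisCO activase at 68.8 FPKM on average at booting and 1403 at flowering and the RuBisCO small subunit at 23.6 and 708.7. The floret markers together ranged from 606.7 to 617.7 FPKM at booting and from 1002 to 1078 at flowering. The part of these cell types in the CESA values was not tested.

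The make-up of the primary wall sum also differed between stages. CESA1 took 35.5% ± 0.892 (SD, n = 3) of it at booting and 30.9% ± 1.08 (SD, n = 3) at flowering, while CESA8 took 25% ± 1.25 and 35.1% ± 1.67. The ratio of CESA1 to CESA8 was 1.33, 1.4 and 1.53 at booting, 0.834, 0.908 and 0.899 at flowering and 1.07, 1.01 and 0.98 in leaves. CESA1 therefore led CESA8 in each booting library and trailed it in each flowering library. CESA2, CESA5 and CESA6 together took 30.8% ± 1.51 (SD, n = 3) at booting and 19% ± 2.01 (SD, n = 3) at flowering, with CESA5 alone at 12% and 4.85%. CESA3 took 8.7% ± 1.15 and 14.9% ± 3.24 (SD, n = 3). These shares were not tested.

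**Figure D4:**
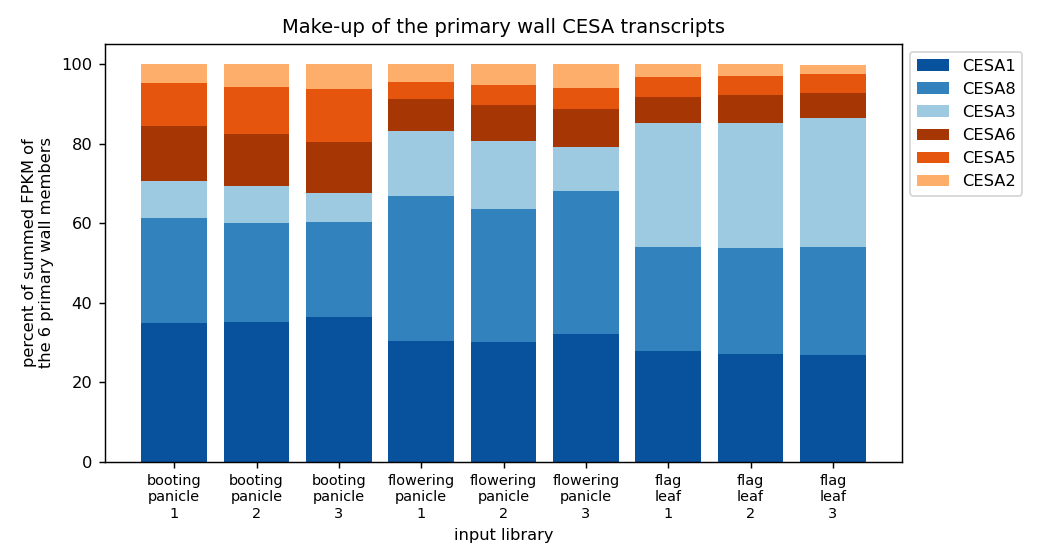
Share of each primary wall gene (y axis, percent of the summed FPKM of the 6 genes) in each of the 9 input libraries (x axis). CESA1, CESA5 and CESA6 take larger shares at booting, CESA8 takes its largest share at flowering, and CESA3 takes 31.7% in flag leaves.

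By level, the order at booting was CESA1, CESA8, CESA6, CESA5, CESA4, CESA3, CESA2, CESA7 and CESA9. Neighbours in this order had separate library ranges only between CESA1 and CESA8, CESA8 and CESA6, and CESA3 and CESA2. At flowering the order was CESA8, CESA1, CESA4, CESA3, CESA7, CESA9, CESA6, CESA2 and CESA5, with separate ranges only between CESA1 and CESA4 and between CESA6 and CESA2. CESA5 thus ranked 4 at booting and 9, the last place, at flowering.

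In flag leaves all 9 genes were low. CESA3, CESA1 and CESA8 led at 6.05 ± 0.476, 5.21 ± 0.572 and 5.1 ± 0.415 FPKM (SD, n = 3), with ranges that overlapped between neighbours. CESA6, CESA5 and CESA2 followed at 1.28 ± 0.19, 0.92 ± 0.0758 and 0.564 ± 0.15 FPKM (SD, n = 3), each apart from the next. CESA3 took 31.7% ± 0.706 (SD, n = 3) of the primary wall sum in leaves, the largest share there.

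The secondary wall genes were close to the bottom of the scale in leaves. CESA4 had 0.334, 0.381 and 0.0921 FPKM. CESA9 had 0.166, 0.129 and 0.0496 FPKM, and CESA7 had 0.166 and 0.0902 FPKM and was listed at 0 in replicate 3. Leaf levels were 0.444% of flowering panicle levels for CESA4, 0.385% for CESA9 and 0.269% for CESA7, against 3.77% to 14% for the primary wall genes. The 6 floret and pollen markers stood at 0.172% to 0.785% in leaves, a range that includes CESA4, CESA7 and CESA9.

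Flag leaf replicate 3 was the lowest leaf library for all 9 members, as it was for 35.7% of all genes and for 50.7% of those at least 10-fold higher in flowering panicles than in leaves. Its level was 60.2% to 87.4% of the mean of replicates 1 and 2 for the primary wall genes and 0% to 33.6% for the secondary wall genes. All 6 floret and pollen markers were lowest there too, at 14.2% to 75%. Over the leaf replicates, the summed pollen markers ranged from 11.7 to 25.9 FPKM and the floret markers from 4.91 to 7.31. The part of panicle RNA in the leaf values was not tested.

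Against flag leaves, all 9 members were called higher in flowering panicles, beside 31.0% of all genes (42.5% called either way). All 9 were also called higher in booting panicles, beside 36.4% of all genes (54.0% either way). These comparisons share the 3 leaf libraries. CESA2, CESA4, CESA5, CESA7 and CESA9 passed the filter on low values through their panicle libraries alone and so had to differ from the leaf; their calls are no support. The other 4 also passed in leaves. For them the log2 change from leaf to flowering panicle was 4.06 for CESA8 (SE 0.12, adjusted p = 6.65e-10), 3.86 for CESA1 (SE 0.09, adjusted p = 2.33e-10), 3.54 for CESA6 (SE 0.10, adjusted p = 7.05e-10) and 2.62 for CESA3 (SE 0.20, adjusted p = 7.58e-07), all by limma.

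From leaf to booting panicle the same 4 genes differed by 5.06 (CESA8), 5.54 (CESA1), 5.57 (CESA6) and 3.33 (CESA3) on the log2 scale. No panicle library of these 4 overlapped a leaf library, and the share of all genes without overlap was not counted. The other members, which passed the filter through panicle libraries alone, had to lie apart from the leaf. For the secondary wall genes the size rests on the pseudocount: CESA4 differed between flowering panicles and leaves by 5.58 with a pseudocount of 1, by 7.44 with 0.1 and by 3.61 with 5. Over all genes, the share of calls that were higher in flowering panicles than in leaves was 72.9%, and 47.1% after quantile normalization. For booting panicles it was 67.3%, and 50.6% after quantile normalization. All 9 members stayed called higher in both, including CESA2, CESA4, CESA5, CESA7 and CESA9, whose calls are no support.

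Outside the family, a few genes had library profiles like those of single members or like a mean over members. Nearest the mean profile of CESA4, CESA7 and CESA9 were an extensin (LOC_Os05g13940), a structural wall protein, at a root mean square difference of 0.282, and expansin-A2 (LOC_Os01g60770), a wall-loosening protein, at 0.304. Next came fasciclin-like arabinogalactan protein 15 (LOC_Os07g06680) at 0.354, laccase-10 (LOC_Os03g16610), of a class of enzymes that couple lignin units, at 0.398, and the sugar transporter SWEET11 (LOC_Os08g42350) at 0.407. The median over the 13441 genes searched was 2.27. Of these 5, expansin-A2 also had the library order of the secondary wall CESA genes. The extensin had 1531 ± 225 FPKM at booting, 1404 ± 250 at flowering and 34.1 ± 3.85 in leaves (SD, n = 3).

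Nearest the mean profile of CESA1, CESA3 and CESA8 were a probable glucuronosyltransferase (LOC_Os01g70190) at 0.153 and the transcription factor GTL1 (LOC_Os03g02240) at 0.158. A UDP-D-apiose/UDP-D-xylose synthase (LOC_Os01g73790), which makes nucleotide sugars for the wall matrix, stood at 0.189, the probable methyltransferase PMT18 (LOC_Os10g36690) at 0.194 and GDPDL3 (LOC_Os04g39610) at 0.196. The median over all genes searched was 1.78. CESA3 itself lay 0.927 from CESA1 and 0.778 from CESA8, so a gene near this mean need not be near each member in it. The nearest gene was WVD2-like 1 (LOC_Os02g10690) for CESA2 at 0.0921. It was glycerol-3-phosphate 2-O-acyltransferase 6 (LOC_Os01g63580), a cutin synthesis enzyme in Arabidopsis, for CESA5 at 0.102, and STRUBBELIG-RECEPTOR FAMILY 7 (LOC_Os10g25090) for CESA6 at 0.101.

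Other cellulose genes were mixed between the stages. Of 3 partners of cellulose synthesis, 1 was called lower at flowering and 1 higher, with a median log2 change of -0.77. Over all genes, 15.3% were called lower and 18.1% higher. Chitinase-like protein 1 (LOC_Os09g32080), needed for normal cellulose deposition, fell from 101.8 ± 9.59 to 41 ± 5.02 FPKM (SD, n = 3; log2 change -1.30, adjusted p = 7.47e-07, limma). Endoglucanase 9 (LOC_Os03g21210) had 26.1 ± 0.509 and 14.9 ± 0.621 FPKM and was not called (-0.77). Endoglucanase 12 (LOC_Os04g41970) rose from 1.58 ± 0.166 to 4.8 ± 0.528 FPKM (SD, n = 3; log2 change 1.17, adjusted p = 1.89e-06, limma).

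Of the 8 COBRA-like genes, which encode anchored wall proteins tied to cellulose assembly, 3 were called higher at flowering and 2 lower, with a median of 0.48. The shares over all genes were 18.1% higher and 15.3% lower. COBRA-like protein 3 (LOC_Os05g32110) fell from 143.5 ± 32.2 to 56 ± 2.4 FPKM (SD, n = 3; log2 change -1.32, adjusted p = 1.13e-05, limma). COBRA-like protein 10 (LOC_Os06g47110), 1 of the 3 called higher, had 0.277 ± 0.0977 FPKM at booting and 99.2 ± 13.9 at flowering (SD, n = 3), and it passed the filter through the flowering libraries alone. COBRA-like protein 5 (LOC_Os03g30250), known as BRITTLE CULM1, had 25, 34.1 and 10.8 FPKM at booting and 31.8, 20 and 22.7 at flowering. These libraries follow the order of CESA4, CESA7 and CESA9, and the log2 change of 0.20 was not called (adjusted p = 0.605, limma).

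The 5 secondary wall regulators included 3 that were called lower at flowering, beside 15.3% of all genes, with a median of -1.32 over the 5. The 3 called lower were the transcription factor LAF1 (LOC_Os01g18240, -1.32), an NAC domain-containing protein 43 gene (LOC_Os06g04090, -1.57) and LOC_Os12g33070 (-2.63), which the descriptions leave without a function. The last passed the filter through the booting libraries alone, so its call is no support. Another gene described as NAC domain-containing protein 43 (LOC_Os08g02300) had 38.6, 39.1 and 37 FPKM at booting and 38.3, 13.6 and 20.4 at flowering. It was not called (-0.77) and followed the library order of the secondary wall CESA genes. That order was found in 2 of the 5 regulators, this gene included, in 2 of the 7 xylan genes, 9 of the 49 lignin genes, 1 of the 8 COBRA-like genes, 0 of the 9 cellulose synthase-like genes and 0 of the 3 partners, beside the 4.79% over all genes.

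None of the 7 genes found as xylan synthesis genes was called between the stages (median -0.23), beside 33.4% of all genes called either way. At an adjusted p under 0.05 alone (limma), 3 of the 7 differed between the stages, all lower at flowering, as were 42.7% of all genes. The 7 are thus near the share over all genes. At an unadjusted p under 0.05 (limma), 0 were higher and 3 lower at flowering, and the share of all genes at that limit was not taken. All 7 were called higher than in leaves in flowering panicles, beside 31.0% of all genes, and in booting panicles, beside 36.4%. Of these, 3 (LOC_Os02g06380, LOC_Os03g18820 and LOC_Os11g13870) passed the filter through panicle libraries alone, so their calls are no support. By description the 7 are IRX15-like proteins, glucuronoxylan methyltransferases, a xyloglucan xylosyltransferase (LOC_Os03g18820) and a beta-(1,2)-xylosyltransferase (LOC_Os08g39380). These xylosyltransferases do not make xylan. The list was found by description and may lack other xylan genes, so it does not stand for xylan synthesis as a whole. Of 49 lignin genes tested, 11 were called higher at flowering and 4 lower (median 0.27), beside 18.1% higher and 15.3% lower of all genes. Among the 4, LOC_Os04g24530, described as 4-coumarate--CoA ligase-like 9, passed the filter through booting libraries alone, so its call is no support. A part of this gene in lignin synthesis was not tested. A phenylalanine ammonia-lyase gene (LOC_Os02g41630), at the entry to lignin synthesis, had 559.6 ± 138 FPKM at booting and 497.4 ± 124 at flowering (SD, n = 3). Cinnamoyl-CoA reductase 1 (LOC_Os09g31514) went the other way from the CESA genes. It had 0.386 ± 0.0813 FPKM at booting, 11.7 ± 1.3 at flowering and 104.3 ± 8.79 in leaves (SD, n = 3). Its log2 change between the stages was 3.19 (adjusted p = 1.31e-09, limma).

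Over all genes, 18.1% were called higher at flowering and 15.3% lower. Of 9 cellulose synthase-like genes tested, relatives that make other wall glucans and mannans, 3 were called higher at flowering and 2 lower (median 0.18). Of these, 2 of the 3 (LOC_Os04g35020 and LOC_Os06g22980) and 1 of the 2 (LOC_Os12g36890) passed the filter only through the stage where they were high, so they had to differ and their calls are no support. Cellulose synthase-like protein C9 (LOC_Os03g56060) had 40.4 ± 3.42 FPKM at booting, 80.9 ± 14.1 at flowering and 0.314 ± 0.219 in leaves (SD, n = 3; 0.97 between the stages, not called). Cellulose synthase-like protein D5 (LOC_Os06g22980), one of these, had 0.0175 ± 0.00994 FPKM at booting and 6.3 ± 0.265 at flowering (SD, n = 3). A further pair of genes described as CESA subunits, LOC_Os06g39970 and LOC_Os12g29300, stayed at 0.246 FPKM or less in every library and were not tested.

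The m6A peaks were deposited as 1 list per group, made from 3 immunoprecipitates and 3 inputs, so differences between the lists have no replicate check. Each peak's fold (immunoprecipitate over input) and log10 p are the authors', and each fold is followed by its percentile among the peaks of its own list. Folds of different lists are not compared. The 9 members held 8 peaks in 5 genes at booting, 9 peaks in 6 genes at flowering and 8 peaks in 6 genes in leaves. A peak was listed for 63.1%, 63.5% and 64.8% of all genes tested. The share was 83.7%, 80.3% and 86.4% among genes with a group mean of 20 to 100 FPKM and 23.0%, 28.4% and 32.2% among those under 1 FPKM. Of the member peaks, 5, 6 and 6 lay in 3' UTRs, 2 in each list lay in 5' UTRs and 1 in each panicle list lay in another exon. Of all peaks, 79.7%, 78.5% and 79.2% lay in 3' UTRs and 5.22%, 5.27% and 5.34% in 5' UTRs. CESA1, CESA3, CESA4, CESA6 and CESA8 had a peak in all 3 lists, as had 57.0% of genes tested.

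CESA1 and CESA3 each had a peak at both ends in all 3 lists, one in the 5' UTR and one in the 3' UTR. The pattern ends for CESA3 with a log10 FDR of -5 or lower, which removes its leaf 5' UTR peak. With a fold of at least 4 it ends for both genes, since the booting 5' UTR peak of CESA1 and both panicle 3' UTR peaks of CESA3 are removed. Of the genes with a peak, 3.04%, 3.24% and 3.17% had peaks at both UTRs in the booting, flowering and leaf lists. The 3' UTR peak of CESA1 spanned chromosome 5: 4565267-4565656 at booting, with a fold of 6.01 that was above 28.5% of peaks in its list. In the flowering list the fold was 6.01 (35.9%), and in the leaf list it was 23 (88.4%). Ranked by the deposited p-value instead, this peak was above 90.2% of peaks at booting, 86.9% at flowering and 58.2% in leaves. The 5' UTR peak of CESA1 had a fold of 2.75 (percentile 8.89) at booting, 5.92 (35) at flowering and 6.43 (28.4) in leaves, and it began within 60 bases of the gene start in each list.

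At its 3' UTR, CESA3 had a fold of 3.02 (percentile 10.8) at booting, 3.41 (16.6) at flowering and 7.26 (33.7) in leaves. At its 5' UTR the folds were 4.14 (18.8), 4.61 (26) and 4.32 (17.7). CESA8 had a single 3' UTR peak in each list, at chromosome 7: 5852711-5853098 at booting. Its folds of 9.08 and 7.16 were above 44.3% and 44.1% of peaks in the panicle lists, and its leaf fold of 33.1 was above 96.9%. By fold, CESA8 therefore ranked near the middle of the panicle lists and near the top of the leaf list, where its level was 5.1 FPKM. By the deposited p-value the order was the other way. A smaller p gives a higher percentile, and the peak stood at 94.1 at booting, 90.5 at flowering and 59.7 in leaves.

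CESA6 had a 3' UTR peak in all lists, with a fold of 2.11 (percentile 4.32) at booting, 2.94 (12.3) at flowering and 7.48 (34.5) in leaves. A second peak of 61 bases in exon 1 of 13, with folds of 1.93 (percentile 3) and 2.07 (4.95), was listed in panicles and not in leaves. CESA4 had a 3' UTR peak in all lists, with a fold of 8.23 (percentile 41.5) at booting, 2.89 (11.9) at flowering and 12.2 (56.2) in leaves. In leaves its log10 p was -2.81 at a mean of 0.269 FPKM.

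The remaining members differed between lists. CESA9 had a peak in the flowering list only (fold 2.33, percentile 7.2, log10 p -163), a pattern shared by 1.49% of genes tested. CESA5 had one in the leaf list only, where its level was 0.92 FPKM (fold 6.09, percentile 26.8, log10 p -2.72), and none at booting, where its level was 96.9 FPKM. A peak in the leaf list alone was found for 3.96% of genes tested. With a log10 FDR of -5 or lower, CESA5 had no peak in any list and CESA4 none in leaves, and with a fold of at least 4, CESA9 had no peak in any list. CESA2 and CESA7 had no peak in any list, as had 29.2% of genes tested and 15.3% of those with a panicle mean of 20 to 100 FPKM.

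Where a gene had a 3' UTR peak in each list, the leaf peak was the widest. This was so for all 5 such members: CESA1 (390, 420 and 599 bases at booting, at flowering and in leaves), CESA3 (91, 241 and 420), CESA6 (331, 361 and 451), CESA8 (388, 358 and 448) and CESA4 (91, 91 and 241). Over all genes with 1 such peak in each list, the leaf peak was the widest in 39.8% of 11436. The median peak width was 446, 445 and 478 bases in the whole lists. All 5 genes had their lowest RNA level in leaves, and the part of RNA level in the widths was not tested. The 3' UTR peaks of CESA4, CESA6 and CESA8 reached the annotated gene end or came within 30 bases of it in every list, while those of CESA3 stopped 270 bases short of it.

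**Figure D5:**
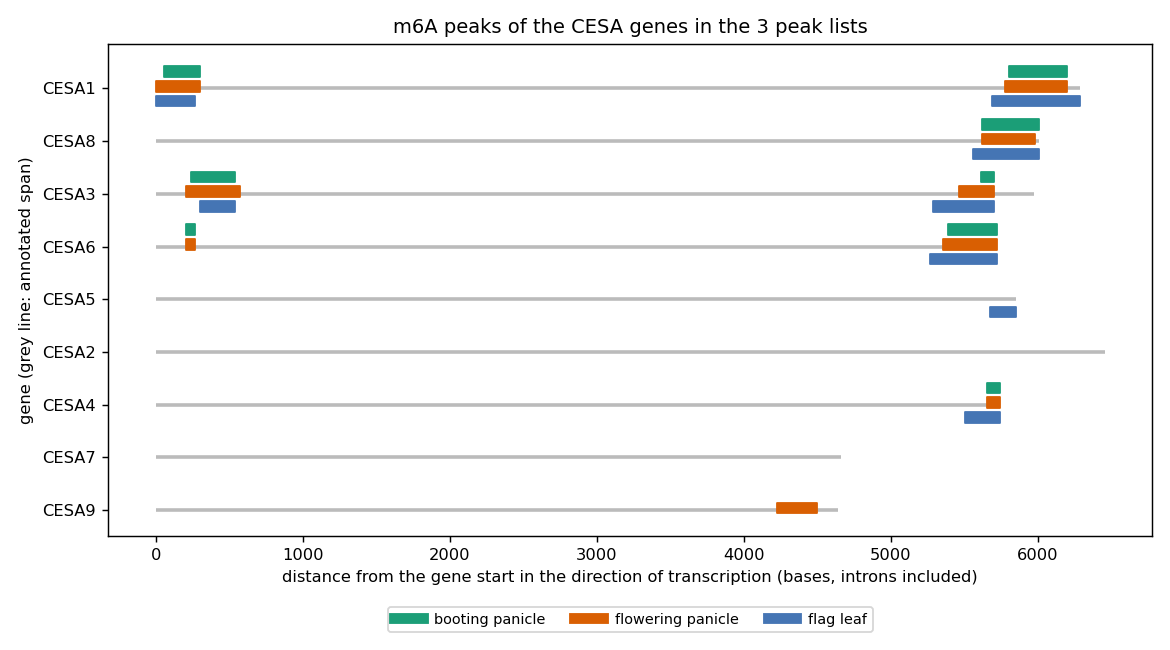
Position of each listed m6A peak (coloured bars) along the 9 CESA genes (grey lines, annotated span), as distance from the gene start in bases (x axis) for each gene (y axis) and list (green booting, orange flowering, blue flag leaf). CESA1 and CESA3 carry peaks at both ends in all lists, CESA2 and CESA7 carry none, and the 3' peaks are widest in leaves.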

How the data were processed

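The authors deposited FPKM for 38663 genes in 9 input libraries and 1 peak list per group. Per the submitters' processing notes they used cutadapt, HISAT2, StringTie, HOMER and ChIPseeker; for versions, peak caller, genome build and strand setting the sources used here give nothing. Per the file headers, each peak carries the deposited log10 of a p-value and of an FDR, a score and a fold (ratio) of immunoprecipitate over input. The score was not used further. The deposited p-value served to rank peaks within a list and is printed for single peaks of CESA4, CESA5 and CESA9. Coordinates are those of the deposited files.

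FPKM were compared as log2(FPKM + 1) for 23355 genes with at least 1 FPKM in 3 or more libraries, in limma 3.58.1 (R 4.3.3) with a variance trend, over all 9 inputs. The code was tested on simulated data. Of low values in single-exon genes, 25% to 40.8% per library came within 0.1 of a whole number of fragments, where chance gives 20%. Reads could therefore not be recovered, and no count test was run. Same-number libraries were not treated as pairs, since their residuals correlated at -0.189 to 0.118, with 2 of 9 over 0.1. Members and lists were chosen with earlier results of these data known. Besides the 9 members, the named genes are those nearest in profile (root mean square difference of centred log2 values) and up to 3 of the most abundant members of each list, with others singled out after their values were seen. Alternatives covered pseudocount, filter, scaling, trend, block, left-out libraries and stricter peak limits. No sequence is shown.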

Additional observations from a re-analysis of the deposited data

How the results depend on the processing

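No change of a member reversed direction or lost its call under any alternative run, and CESA8 gained its call between the stages in 6 of them. With a pseudocount of 5, the genes called over the whole table fell from 7802 to 4367 between the stages, from 9930 to 5303 for flowering panicles against leaves and from 12622 to 7815 for booting panicles against leaves; the cause was not tested. With peaks of at least 4-fold, the members held 4 peaks at booting, and at flowering 4 peaks in 3 genes; the booting 5' UTR peak of CESA1, the panicle 3' UTR peaks of CESA3, all panicle peaks of CESA6 and the flowering peaks of CESA4 and CESA9 were lost. With a log10 FDR of -5 or lower, 5 member peaks in 4 genes were left in leaves, where CESA3 (5' UTR), CESA4 and CESA5 each lost a peak, and the flowering exon peak of CESA6 was lost. By construction these limits only remove peaks. The ratio of secondary to primary wall FPKM was also taken with CESA1, CESA3 and CESA8 alone as the primary set, a smaller sum by construction. It was 0.29 at booting and 0.521 at flowering, and the library ranges of the stages overlapped. With single libraries left out, 4 to 5 members were called between the stages and 9 in each comparison with leaves. The ratio with all 6 primary wall members then ranged from 0.152 to 0.243 at booting, 0.383 to 0.466 at flowering and 0.0188 to 0.0314 in leaves. With the replicate number as a block, 4, 9 and 9 members and 7807, 9934 and 12628 genes were called, and no member's call changed. Of 7 member peaks shared by all lists, 5 remained with an overlap of 50% of each peak. Counting members by adjusted p alone was chosen after seeing the data. The depth is unknown, so no counting error can be given for the leaf values of CESA4, CESA7 and CESA9, all under 1 FPKM.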
